A study of Ovis aries with 12 samples.

Results

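Mitral valve anterior leaflets of 12 sheep were divided by how much of their RNA counts came from a block of gene IDs taken as mitochondrial. The other genes, taken as nuclear, were compared between the 2 sides. The sides were chosen by a measured value: the count share of the 37 gene IDs with the lowest numbers, taken over all counts of a library. A share of 5% or more made a library high, which held for 3 of the 12 libraries, and the other 9 were low. The high leaflets came from pre-MI replicate 2, from 8-week replicate 4 without regurgitation and from 8-week replicate 1 with it. Here MI is myocardial infarction, IMR is ischemic mitral regurgitation (a leak through the valve after an infarction), and a replicate number is the one that ends a library's title.

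All animals were adult Dorset sheep, and the poly-A RNA of 1 leaflet was sequenced per animal. The study's own text speaks of 13 animals, while its group sizes and labels give 12. Leaflets were taken before MI (n = 3), or 4 weeks (n = 5) or 8 weeks (n = 4) after branches of the circumflex coronary artery had been tied off, which causes an infarct of the posterior wall. By echocardiography 3 of the 4-week and 2 of the 8-week animals had IMR, described as low-grade, and no pre-MI animal did. The leaflet was the whole tissue, frozen and homogenized, so that all its cell types were read together. The sides mixed times and regurgitation, and not evenly: 1 of 3 pre-MI, 0 of 5 4-week and 2 of 4 8-week libraries were high, as were 1 of 5 with IMR and 2 of 7 without.

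Mitochondria keep a small genome of their own, which encodes a few subunits of the respiratory chain with the ribosomal and transfer RNAs needed to translate them. All other mitochondrial proteins are encoded in the nucleus, made in the cytosol and imported. Many mitochondrial transcripts carry poly-A tails and are captured with nuclear messenger RNA, so their share of a library varies with tissue and cell type, and it is high in heart muscle. The mitral leaflet itself is mainly collagen-rich connective tissue with interstitial cells under an endothelial lining, and its base joins the wall of the left atrium.

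The deposited table gives Ensembl IDs without names, and the RefSeq gene table used here holds 0 of these IDs, so no gene could be named. Markers of heart muscle, interstitial cells, endothelium, blood and other cell types could therefore not be read, and the cell makeup of the leaflets was not tested. In whole tissue, fewer cells of a type and less RNA per cell cannot be told apart. Library totals ran from 7768007 to 19175100 counts, and nuclear totals, without the block, from 7621728 to 18784019.

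The block itself had the pattern of a mitochondrial gene set. The sheep mitochondrial record of RefSeq (assembly ARS-UI_Ramb_v3.0) lists 37 genes, 22 for transfer RNA, 2 for ribosomal RNA and 13 for proteins. With the IDs in numerical order set beside that gene order, 15 IDs had at least 1000 counts over all libraries, and 14 of them stood at 1 of the 15 places of a ribosomal RNA or a protein. At the 22 places of transfer RNAs, which are short molecules, 21 IDs had 0 counts in every library. Both exceptions were single: the ID at place 37, a transfer RNA in RefSeq, had counts in every library, and the ID at place 27, a protein in RefSeq, had 1 count in all. This match of order describes the block and gives no ID a name.

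**Figure D1:**
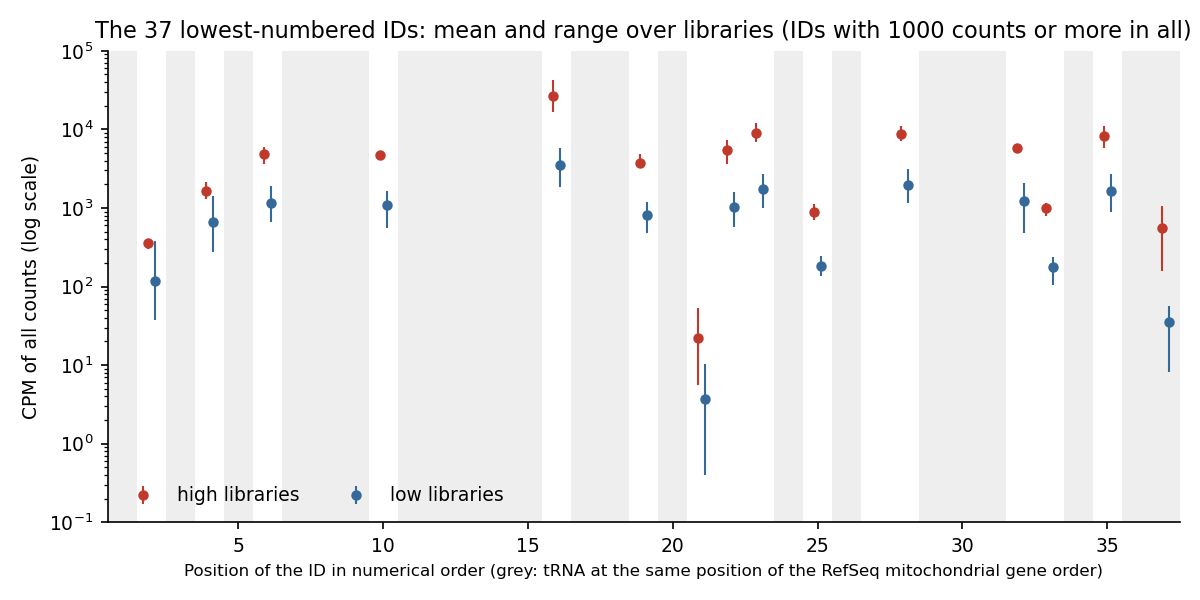
CPM of all counts (log scale) for the 37 lowest-numbered IDs in numerical order; points are means, and bars run from the lowest to the highest library, in red for the 3 high and in blue for the 9 low libraries. Only the 15 IDs with 1000 counts or more are drawn, and all but 1 of them lie outside the grey places of transfer RNAs.

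The shares that chose the sides were well apart. Pre-MI replicate 2 had 5.97% of its counts in the block, 8-week replicate 1 with IMR 7.14%, and 8-week replicate 4 without IMR 11.3%. The 9 low libraries ran from 0.928% (pre-MI replicate 4) over a median of 1.63% to 2.38% (pre-MI replicate 3), so no library lay between 2.38% and 5.97%. The 95% Wilson intervals of these shares were at most 0.0172 percentage points to either side, which covers counting error only.

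Of the 15 block IDs with at least 1000 counts, 12 were higher in each high library than in any low one, in CPM of all counts (the count scaled to a library of 1000000). The exceptions stood at places 2, 4 and 21. Ratios of the high to the low mean ran from 2.50 to 16.1 with a median of 4.81, as the choice of the sides requires. The ID at place 16 had the most block counts in all 12 libraries. It took 27.9%, 27.9% and 38.1% of the block in the high libraries and 17.9% to 26.6% in the low ones. Place 16 is itself part of the count that chose the sides, so this lack of overlap adds no support. Among the low libraries its largest part was in 4-week replicate 1 without IMR, whose block share was 0.957%. The parts of places 4 and 28 did not overlap either, but were smaller in the high libraries. Place 4 took 1.91% to 2.14% of the block in the high and 2.60% to 7.59% in the low libraries. For place 28 it was 9.80% to 11.77% in the high and 11.98% to 14.40% in the low ones. The ratio of 16.1 belonged to place 37, with 156, 461 and 1074 CPM in pre-MI replicate 2, 8-week replicate 1 with IMR and 8-week replicate 4 without IMR, against 8.21 to 56.7 CPM in the low libraries.

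**Figure D2:**
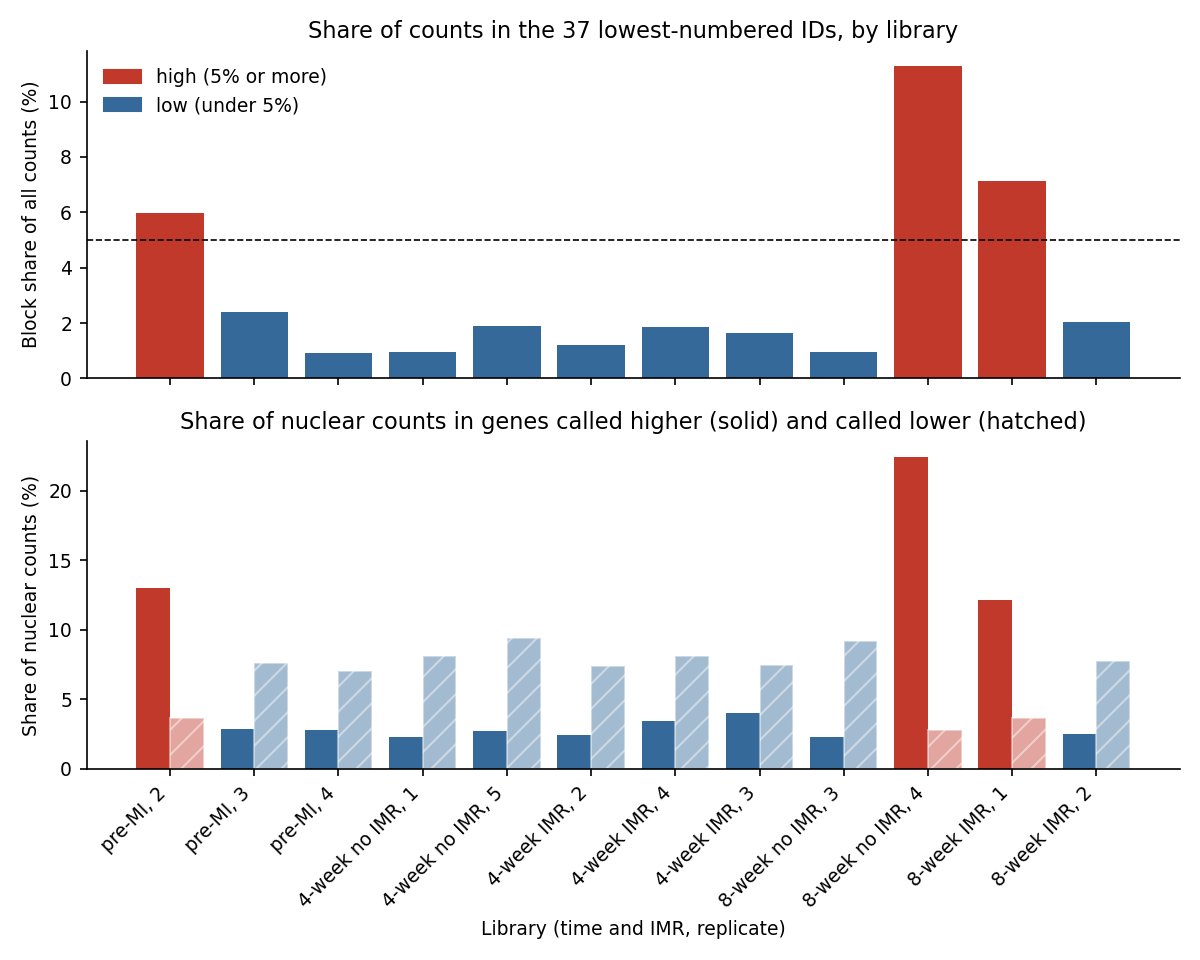
Upper panel: share of all counts in the block (%), by library, with a dashed line at 5%. Lower panel: share of nuclear counts (%) in the nuclear genes called higher (solid) and called lower (hatched) in the high libraries; the high libraries (red) have 12.1% to 22.4% in the former and the low ones (blue) 2.27% to 4.04%.

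The nuclear genes were then compared with the block left out of the counts, the library sizes and the scaling factors. The leaflets with a high block share differed from the others in many nuclear genes, and mostly by higher levels. In edgeR's quasi-likelihood test of the 3 high against the 9 low libraries, 1359 of 14784 nuclear genes passed an adjusted p of 0.05 (9.19%). Of these, 1220 were higher (8.25% of genes tested) and 139 lower (0.94%) in the high libraries, so 89.8% of the calls were higher. DESeq2, with its own size factors, called 1808 genes, of which 73.2% were higher. The nuclear genes did not enter the block count, but their total stands in the denominator of the share.

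The higher genes differed by large amounts. Their median log2 fold change was 2.12 (median standard error 0.39), and 666 of the 1220 were at least 4-fold, 234 at least 16-fold and 122 at least 32-fold higher. The lower genes had a median of -1.27 (median standard error 0.34), with 24 of 139 at least 4-fold and 3 at least 16-fold lower. Over all genes tested the median was -0.03, and the middle of the distribution reached from -1.14 at the 5th percentile to 2.01 at the 95th.

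In 1150 genes all 3 high libraries lay above all 9 low ones (7.78% of genes tested), and in 246 they lay below (1.66%). Among called genes this held for 989 of the 1220 higher and for 113 of the 139 lower. No gene had 0 counts in every low library with at least 10 in each high one, nor the reverse. With at most 3 counts in each low library and at least 100 in each high one there was 1 gene, and none the other way.

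**Figure D3:**
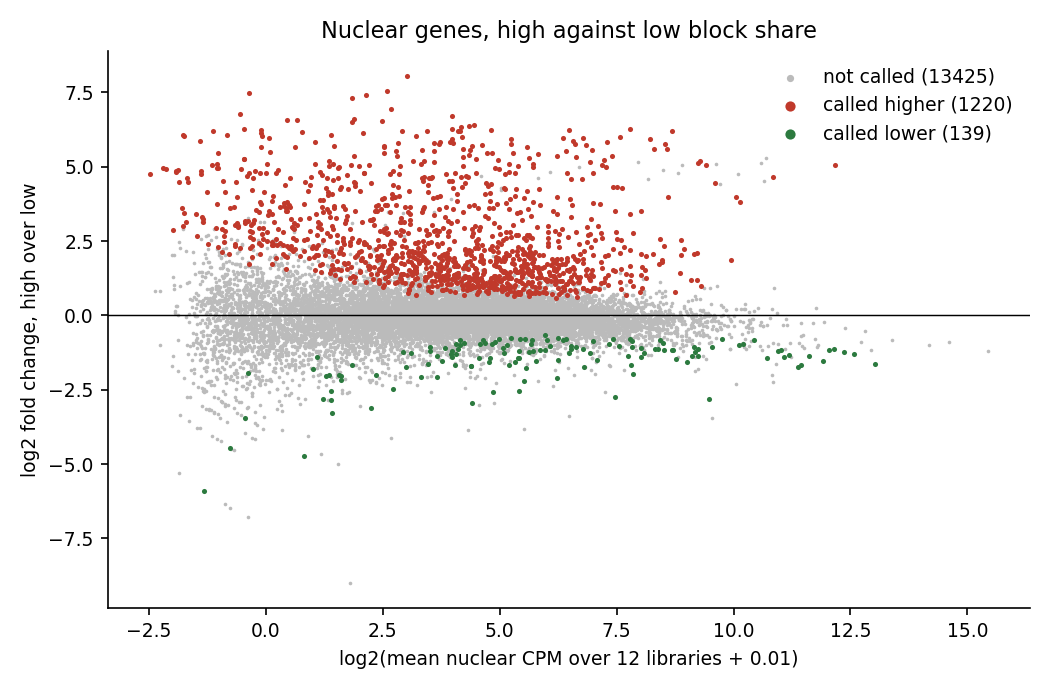
Each point is a nuclear gene: log2 fold change of the 3 high over the 9 low libraries against log2 of its mean CPM over 12 libraries (0.01 added). The 1220 genes called higher (red) lie at low, middle and high levels and reach a log2 fold change of 8.05, while the 139 called lower (green) reach down to -5.89.

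Genes called in either direction ranged widely in level. By mean level in the high libraries, 22 of the 1220 higher genes had at least 1000 CPM, 273 had 100 to 1000, 650 had 10 to 100, 262 had 1 to 10 and 13 had under 1. By mean level in the low libraries, 17 of the 139 lower genes had at least 1000 CPM, 39 had 100 to 1000, 61 had 10 to 100, 18 had 1 to 10 and 4 had under 1. Together the higher genes took 12.1% of nuclear counts in 8-week replicate 1 with IMR, 13.0% in pre-MI replicate 2 and 22.4% in 8-week replicate 4 without IMR. In the low libraries they took 2.27% to 4.04% (median 2.74%). The lower genes took 2.81% to 3.69% in the high and 7.05% to 9.39% in the low libraries. These genes were called on the same libraries, so the sums describe them and add no support.

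Among the higher genes 1 stood out by level, chosen here after its values had been seen. It had 9921 CPM in 8-week replicate 1 with IMR, 15900 in pre-MI replicate 2 and 24552 in 8-week replicate 4 without IMR. In the low libraries it ran from 29.1 over a median of 100 to 2591 CPM, so the sides did not overlap, yet the low libraries spread 89.1-fold among themselves. Its log2 fold change was 5.04 (standard error 1.15, edgeR adjusted p = 0.0128), and 7.88 with the time point in the model (adjusted p = 0.00415). Without it the higher genes still took 11.1% to 20.1% of nuclear counts in the high and 2.26% to 3.80% in the low libraries.

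The IDs with the smallest p in each direction show the values behind the calls. They were picked by that p on these same libraries. Their lack of overlap, and their calls in other fits of these libraries, therefore add no support. ENSOARG00000013800 had 70.6 CPM in 8-week replicate 1 with IMR, 118 in pre-MI replicate 2 and 157 in 8-week replicate 4 without IMR. In the low libraries it ran from 4.74 over a median of 8.16 to 13.0 CPM, with 51 to 178 counts. Each high library thus lay above all low ones, and the log2 fold change was 3.80 (standard error 0.27, edgeR adjusted p = 5.70e-06).

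ENSOARG00000018285 was near the lower end of what these libraries could count in the low leaflets. It had 10.7, 12.2 and 20.7 CPM in the same 3 libraries (138 to 231 counts), against 0.235 to 0.856 CPM with a median of 0.366 in the low ones, where it had only 2 to 14 counts. The log2 fold change was 5.02 (standard error 0.37, edgeR adjusted p = 5.70e-06), and the sides did not overlap. Its counts in the low libraries were too few for the filter on low counts, so it was tested only through the high ones. A gene this low in the high libraries as well would not have been tested.

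Both IDs named on the lower side were abundant. ENSOARG00000019080 had 1499 CPM in 8-week replicate 4 without IMR, 1517 in 8-week replicate 1 with IMR and 1719 in pre-MI replicate 2, against 3567 to 6701 CPM (median 4501) in the low libraries. The log2 fold change was -1.54 (standard error 0.25, edgeR adjusted p = 8.79e-04). ENSOARG00000008760 had 2867 CPM in pre-MI replicate 2, 3090 in 8-week replicate 4 without IMR and 3842 in 8-week replicate 1 with IMR, against 6267 to 13641 (median 9003). Its log2 fold change was -1.63 (standard error 0.28, edgeR adjusted p = 0.00141). For both IDs every high library lay below every low one. With 1 high library at a time set against the 9 low ones, the former was called with 1 of the 3 and the latter with none (adjusted p of 0.0598 to 0.263), while both higher IDs were called each time. The log2 fold changes of these fits were -1.61 to -1.43 for the former and -1.82 to -1.39 for the latter, close to those with all 3.

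**Figure D4:**
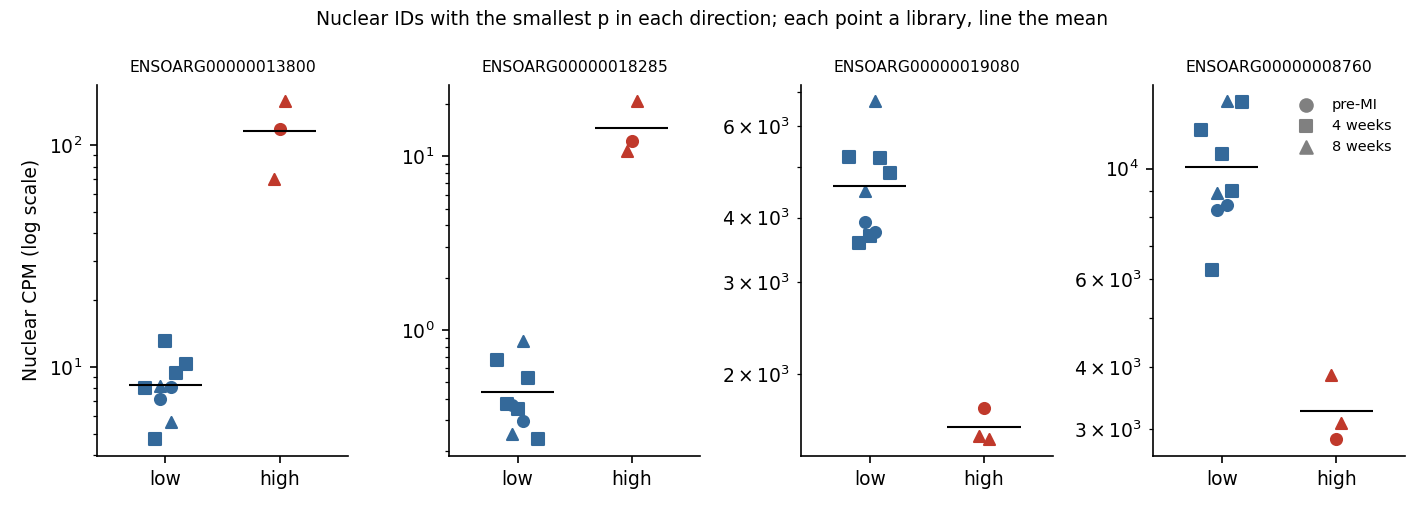
Nuclear CPM (log scale) of the 2 higher and 2 lower IDs with the smallest p, in the 9 low (blue) and 3 high (red) libraries; each point is a library, its shape the time point, and the line the mean. The sides do not overlap in any panel, and the pre-MI high library (red circle) lies with the 8-week high ones (red triangles). The IDs were picked by p on these same libraries.

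The size of the nuclear difference was not the same in the 3 high leaflets. Of the 1220 higher genes, 1068 had their highest level in 8-week replicate 4 without IMR, the library with the largest block share. Pre-MI replicate 2 was highest in 100 and 8-week replicate 1 with IMR in 52. Below the top library the order did not follow the share. Of the 3, 8-week replicate 1 with IMR was lowest in 668 genes and pre-MI replicate 2, with the smaller share, in 527. These genes were called with all 3 libraries, and the same was not counted over all genes tested. Without 8-week replicate 4 the number called fell from 1359 to 583 (570 of them higher), while without either other high library it was 1247 or 1322. Set alone against the 9 low libraries, 8-week replicate 4 without IMR gave 1103 called genes, pre-MI replicate 2 gave 280 and 8-week replicate 1 with IMR gave 209. In these fits the lone library is assumed to vary like the others.

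Genes called without a high library could be looked up in that library, although the 9 low libraries were shared. That sharing favors the called direction, since the genes were picked against the same low values. The shares over all genes are therefore not a matched baseline. The counts cover only genes that were also tested with all 12 libraries, which leaves out some of those called. Of 1135 such genes called higher without pre-MI replicate 2, 923 (81.3%) lay above all low libraries in it, where 17.8% of all genes tested did. For 8-week replicate 1 with IMR it was 954 of 1152 (82.8%, against 16.9% of all genes). For 8-week replicate 4 without IMR it was 556 of 560 (99.3%, against 21.4%). Of such genes called lower, 56 of 112 lay below all low libraries in pre-MI replicate 2 when it was left out, where 12.9% of all genes did. It was 56 of 133 (42.1%, against 10.6%) for 8-week replicate 1 with IMR and 11 of 13 (84.6%, against 12.6%) for 8-week replicate 4 without IMR.

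On the main axis of variation of the nuclear profile the 3 high leaflets stood together, although they came from 3 different groups of time and IMR. The first principal component of log2 CPM held 36.2% of the variance and had scores of 77.9, 87.5 and 124 in the high and -58.7 to 6.22 in the low libraries. The sides did not overlap on it (two-sided exact permutation p = 0.00909, the smallest that 220 assignments can give; adjusted p = 0.0364 over 4 components). These assignments did not hold the time point constant, and all 4-week libraries are low. Components 2 to 4 differed by less than their spread (exact permutation, adjusted p = 0.991 each). On component 3 the high libraries were far apart, at -45.9, -14.9 and 59.2, wider than the low ones (-35.4 to 36.5). The low library nearest to the high ones on the first component was 4-week replicate 3 with IMR.

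Correlations between libraries were computed next. Across nuclear genes, which are not independent replicates, the 3 pairs of high libraries had Pearson correlations of 0.916 to 0.934 (mean 0.927), and the 27 pairs of a high with a low library 0.779 to 0.918 (mean 0.859). The difference of the means was 0.0682 (one-sided exact permutation p = 0.00455, the smallest possible). Without 8-week replicate 4 without IMR it was 0.0431 and no longer passed (one-sided exact permutation p = 0.0545, where 0.0182 was the smallest possible). Each high library was closer to another high one than to any low one. The 4 pairs of a high library with a low one of its own time and IMR status had 0.834 to 0.886. Low libraries among themselves had 0.835 to 0.962 (mean 0.923), a mean close to that of the high pairs.

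**Figure D5:**
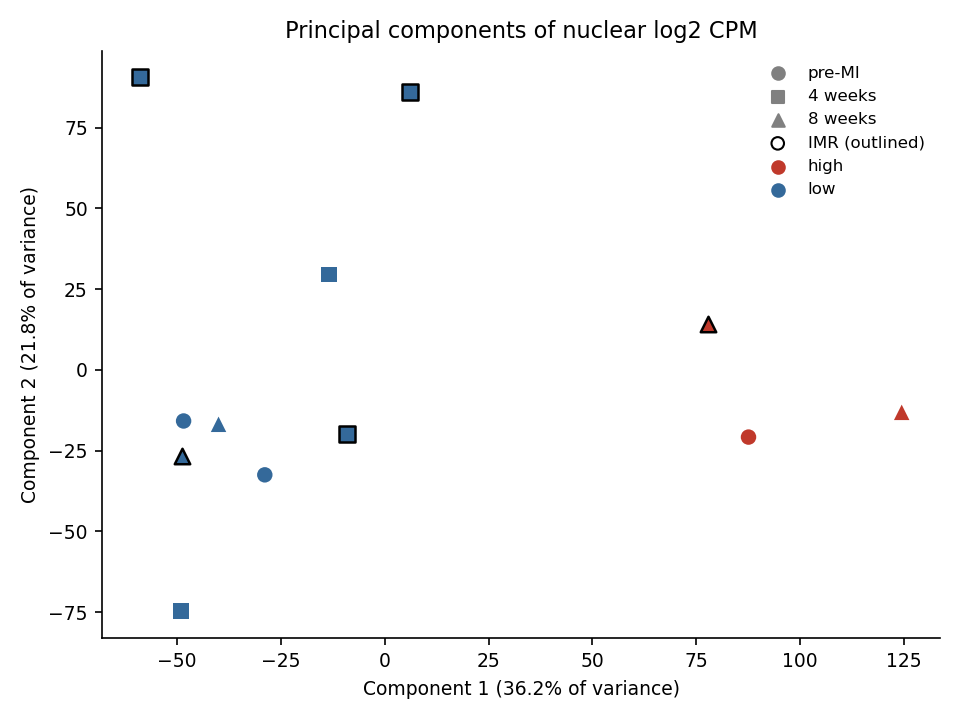
Scores of the 12 libraries on the first 2 principal components of nuclear log2 CPM (36.2% and 21.8% of the variance); color gives the side, shape the time point, and an outline IMR. The 3 high libraries sit at 77.9 or more on component 1 and all low ones at 6.22 or less, while component 2 does not part the sides.

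Time and regurgitation were next held constant, since the sides were uneven in both. With the time point in the model 928 genes passed (6.28% of genes tested), 875 higher and 53 lower. DESeq2 called 1454 in the same model, 1191 higher and 263 lower. Of the genes called without it, 820 of 1220 higher and 35 of 139 lower were called again in the same direction. With time and IMR together as 5 groups 820 passed (5.55%), 770 higher and 50 lower. In both models the 4-week libraries, all low, add to the estimate of the spread and not to the difference. The count with time in the model rested on few animals. It was 583 when pre-MI replicate 2 was dropped. Dropping replicate 3 of the 8-week animals without IMR left 437, and dropping replicate 4 of the same group left 473. It was 424 when replicate 2 of the 8-week animals with IMR was dropped. Whether the sides differed by other amounts at 8 weeks than before MI was tested as an interaction in edgeR, with only 1 high library before MI. With so few libraries the test cannot show that the differences were equal. In that test 0 genes passed (smallest adjusted p 0.270), and 1845 of 14569 had an unadjusted p under 0.05.

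The comparisons of time and regurgitation were also fitted with and without the side as a term. In edgeR 0 genes passed in each of them, either way. Counted at an unadjusted p of 0.05, 8 weeks against 4 weeks gave 1265 of 14784 genes without the side and 714 with it. The numbers were 796 and 1059 for 4 weeks against pre-MI, 285 and 301 for 8 weeks against pre-MI, and 765 and 931 for IMR within time. Each is out of 14784 genes tested, and a fraction of about 0.05 of these would pass this line with no difference at all. The change of these numbers with the side was not tested.

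The share was finally used as a number in place of the 2 sides. Along the log2 share over all 12 libraries 1338 genes passed in edgeR (9.05% of genes tested), 1186 with a rising and 152 with a falling level; DESeq2 called 1253 and 508. Of the genes called between the sides, 1088 of 1220 higher and 72 of 139 lower were called here in the same direction. The same 12 libraries were fitted, and their shares lie far apart between the sides, so this overlap adds no support. The number passing along the log2 share was 402 without 8-week replicate 4 without IMR and 669 with the time point in the model. Within the 9 low libraries alone 0 genes passed (smallest adjusted p 0.999), with 421 of 15026 at an unadjusted p under 0.05. Their shares span only 0.928% to 2.38%. Among these 9 a relation of the first component with the log2 share was not past the threshold (Pearson r = -0.147, exact permutation p = 0.699; Spearman rho = -0.283, exact permutation p = 0.463; adjusted p = 0.699 for both), and without the 2 libraries farthest from the median share r was -0.247.

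Measures of library quality that the table allows were set beside these results. The high libraries had 11488852 to 13829434 nuclear counts and the low ones 7621728 to 18784019. At an equal depth of 7621728 nuclear counts, 15163 to 16666 nuclear genes had a count in the high and 15601 to 16623 in the low libraries. The 10 most abundant nuclear genes took 10.8% ± 1.95 (SD, n = 3) of nuclear counts in the high and 15.5% ± 4.20 (SD, n = 9) in the low libraries (two-sided exact permutation p = 0.0364, adjusted p = 0.145 over 4 measures). For the nuclear total, the genes at equal depth and the scaling factor the exact permutation adjusted p was 0.739, 0.739 and 0.845. Their part in the nuclear difference was not tested, and neither was that of RNA integrity, for which the labels give only a minimum.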

How the data were processed

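The authors deposited raw counts per Ensembl sheep gene ID, 1 column per animal; the submitters' processing notes name Bowtie2 2.2.3, TopHat2 2.0.12 and HTSeq 0.6.1. Genome build, annotation, strand setting and the treatment of reads shared by similar or overlapping genes are not given in the sources used here, so counts of such genes are uncertain. Of 25197 IDs, 25160 lay outside the block and 4833 of those had 0 counts throughout. The libraries differed beyond sampling noise (for each pair, chi-square over genes divided by its degrees of freedom was at least 44.6).

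The members, gene lists and tests were chosen with earlier results of these data known. Nuclear counts were filtered with filterByExpr on the 5 groups of time and IMR (14784 genes, 99.95% of nuclear counts), scaled with TMM factors (0.728 to 1.14) and fitted with edgeR 4.0.16 under R 4.3.3 (robust quasi-likelihood, 10 residual degrees of freedom, biological coefficient of variation 0.458), with Benjamini-Hochberg adjustment at 0.05 over all genes of a fit. CPM of nuclear genes are counts scaled to TMM-adjusted nuclear totals of 1000000, log2 CPM used a prior count of 2, and a standard error is the log2 fold change over the square root of F. Exact permutation tests covered all 220 assignments of 3 of 12 libraries. They held neither time nor IMR constant, for the components and the correlations alike. The rule for named genes took the 2 higher and 2 lower IDs with the smallest p among those passing; gene lists prepared by symbol were not used here. The fit was tested on simulated counts. Alternatives were DESeq2 1.42.0, limma 3.58.1 voom, other scalings and filters, covariates, and leaving out libraries. Depth gives the precision of counts, and the separate animals are the replicates. Figures were drawn with matplotlib 3.10.9.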

Additional observations from a re-analysis of the deposited data

Results flagged for a closer look

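Each of 13 measures was looked at for a library far from the rest of the 9 low ones, by Dixon's ratio of gap to range at its 95% critical value (0.493 for 9 libraries). Chance gives such a distance in about 1 of 20 groups, or 0.65 times here, and 2 were found. The 3 high libraries are too few to be looked at in this way.

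The 10 most abundant nuclear genes took 25.4% of nuclear counts in replicate 1 of the 4-week animals without IMR, against 10.3% to 16.5% in the other low libraries (ratio 0.588). The nuclear gene with the highest level among those called higher had 29.1 to 1129 CPM in 8 of the low libraries and 2591 CPM in 4-week replicate 3 with IMR (ratio 0.571). The latter is also the low library nearest to the high ones on the first principal component, and its block share was 1.63%.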

How the results depend on the processing

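The number of nuclear genes called between the sides was 877 with a replicate block on the animal number and 820 with 5 groups of time and IMR in the model, and 280 and 209 with only pre-MI replicate 2 or only 8-week replicate 1 with IMR among the high libraries, fits added after seeing the data that have fewer samples. Leaving out 1 library gave 583 to 1391. Scaling, filters, voom and DESeq2 kept it within 1.5 times, though DESeq2 called 1808 genes of which 73.2% were higher, against 89.8% in edgeR. Along the log2 share the count was 638 with the replicate block, 669 with time in the model, 0 in the 9 low libraries alone (also added) and 402 to 1429 leaving out 1 library. With time in the model it was 1454 in DESeq2 and 424 to 1035 leaving out 1 library. The cause was not tested. Each leaflet came from its own animal, so same-numbered libraries are not pairs and the replicate block joined separate animals. Deviations of same-numbered libraries from their group means correlated above 0.1 in 3 of 10 combinations (-0.500 to 0.474). In groups of 2 libraries such deviations are equal and opposite, so these correlations cannot decide on pairing. Without 1 library the difference on component 1 was 104 to 142. With a high library left out, 55 assignments allow no two-sided exact permutation p under 0.0364. The adjusted p for component 1 was 0.145 in each of those fits. Components 2, 3 and 4 ran from -56.9 to 4.70, -8.94 to 2.53 and -9.18 to 2.67, none past the threshold. The correlation difference ran from 0.0431 (one-sided exact permutation p = 0.0545, without 8-week replicate 4 without IMR) to 0.0824. The difference in the share of the 10 most abundant genes ran from -5.42 to -3.48 percentage points (exact permutation, adjusted p = 0.0485 without pre-MI replicate 3), that in genes at equal depth from -508 to 243.5, and that in scaling factors from -0.00647 to 0.0585, and was -0.0232 without the 4-week libraries.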

Other observations

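The larger folds were called almost entirely on the higher side. A log2 fold change of 3 or more was found in 411 genes, of which 382 were called, and one of -3 or less in 60 genes, of which 6 were called. In 52 of the other 54 the low libraries overlapped the high ones. Such overlap was common, since the high libraries lay below all low ones in only 1.66% of all genes tested. The highest value of these 54 genes lay in a 4-week library in 40 cases, and in 4-week replicate 2 with IMR in 22. These counts were made after the values had been seen, and the place of the highest value was not counted over all genes tested. The 4-week libraries are all on the low side, where they make up 5 of the 9.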
